A study of Mus musculus with 16 samples.

Results

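The genes described here are 10 mouse genes of transforming growth factor beta (TGF-beta) signaling, read in RNA of human neuroblastoma xenografts grown in mice. They are the ligands Tgfb1, Tgfb2 and Tgfb3, the latent TGF-beta binding proteins Ltbp1 and Ltbp2, the receptors Tgfbr1, Tgfbr2 and Tgfbr3, the induced matrix protein Tgfbi and the corepressor Tgif1. Each gene was represented by the probe set that names only that gene in the platform annotation, and where several did so the one of highest mean signal would have been taken. Every one of the 10 genes had exactly 1 such probe set, out of 40543 probe sets on the array, which name 22179 genes singly.

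LA-N-1, a MYCN-amplified human neuroblastoma cell line, was grown under the skin of young female athymic Nude-Foxn1 nu/nu mice, which lack a thymus and therefore most T cells. The mice received cinacalcet, an allosteric activator of the calcium-sensing receptor, or vehicle by oral gavage until their tumors reached a set volume, and total RNA from the excised tumors was read on Mouse Gene 2.1 ST arrays. The comparisons used 3 tumors with prolonged cinacalcet treatment (cinacalcet 9, 10 and 11), 4 with shorter cinacalcet treatment (4, 5, 7 and 8) and 8 vehicle tumors (5 to 12), and cinacalcet 6, which the study set aside, was kept apart. All 16 tumors came from the same human line, and because each mouse was treated until its tumor reached the limit, the effects of treatment length, slow growth and time in the host cannot be told apart.

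TGF-beta is secreted in a latent complex, tied to the matrix by latent TGF-beta binding proteins, and acts only after release from that complex. Active ligand assembles the serine/threonine kinase receptors Tgfbr2 and Tgfbr1, which phosphorylate Smad2 and Smad3, and these enter the nucleus with Smad4. In tumor stroma the pathway is known for driving fibroblasts toward matrix production, and macrophages, platelets and fibroblasts are among its sources.

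The array probes were designed on mouse transcripts, so that signal was read as that of host cells inside the tumor. No array of LA-N-1 cells alone was among the samples, and the binding of human transcripts to these probes cannot be told apart from mouse signal for any gene. Because the RNA was from whole tumors, fewer host cells of a type and less RNA per cell cannot be told apart either. Values are log2 signals, and a difference of 1 on this scale is a doubling. Levels of different genes are not compared, since probe sets differ in how strongly they bind.

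The promoters of Tgfb1, Tgfbr2 and Ltbp2 are shown because these 3 genes, a ligand, its receptor and a latent binding protein, varied together over the 15 tumors (Pearson's r of 0.87 for Tgfb1 and Tgfbr2, 0.87 for Ltbp2 and Tgfbr2, and 0.85 for Tgfb1 and Ltbp2) and with the mouse housekeeping level of the tumor, as given after the single genes. Of the 10 genes, 8 had a promoter entry and 5 had exactly 1. The sequences are RefSeq's (GRCm38.p6), 250 bases before to 50 bases after the start of each gene, written 5′ to 3′ on the gene's own strand. Capitals mark GC boxes (GGGCGG) and CCAAT boxes (CCAAT), searched on both strands. A Smad box (CAGACA) and an AP-1 site (TGACTCA) were also searched.

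Tgfb1, chr7:25686752-25687051, + strand: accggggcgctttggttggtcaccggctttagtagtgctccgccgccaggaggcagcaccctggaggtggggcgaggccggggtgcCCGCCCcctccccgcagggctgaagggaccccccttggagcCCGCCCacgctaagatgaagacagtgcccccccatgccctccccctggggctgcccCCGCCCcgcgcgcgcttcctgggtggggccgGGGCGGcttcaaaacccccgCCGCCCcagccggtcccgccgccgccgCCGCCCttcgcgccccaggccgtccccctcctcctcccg
Tgfbr2, chr9:116175314-116175613, - strand: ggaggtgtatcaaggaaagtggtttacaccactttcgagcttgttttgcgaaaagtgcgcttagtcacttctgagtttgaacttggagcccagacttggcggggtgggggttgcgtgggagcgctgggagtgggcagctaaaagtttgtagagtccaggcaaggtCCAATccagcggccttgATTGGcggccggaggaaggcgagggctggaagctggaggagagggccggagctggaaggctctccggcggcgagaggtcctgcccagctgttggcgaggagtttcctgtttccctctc
Ltbp2, chr12:84876442-84876741, - strand: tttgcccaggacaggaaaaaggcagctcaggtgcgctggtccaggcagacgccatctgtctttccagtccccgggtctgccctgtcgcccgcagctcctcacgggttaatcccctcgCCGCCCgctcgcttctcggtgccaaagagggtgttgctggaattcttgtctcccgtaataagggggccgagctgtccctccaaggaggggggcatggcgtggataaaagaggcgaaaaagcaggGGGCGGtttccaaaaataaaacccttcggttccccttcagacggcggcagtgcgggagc

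The Tgfb1 window held 6 matches to the GC box, and 77.0% of its bases were G or C, against a median of 52.7% over 32851 RefSeq promoters of the same length. The Ltbp2 window held 2 GC boxes and the Tgfbr2 window none. The Tgfbr2 window instead held 2 CCAAT boxes, 1 on each strand, and the windows of Tgfb1 and Ltbp2 none. A GC box occurred in 35.7% of all promoters, a CCAAT box in 37.4%, a Smad box in 21.0% and an AP-1 site in 5.2%. None of the 3 windows held the full letters CAGACA of the Smad box or TGACTCA of the AP-1 site, and shorter forms of these were not searched. These are matches of letters, not measured sites.

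Array medians ran between 1.58 and 1.85 on the log2 scale over the 15 tumors, and genes silent in tumor and stroma averaged 1.25 ± 0.05 in prolonged tumors (SD, n = 3), 1.43 ± 0.20 in shorter tumors (SD, n = 4) and 1.41 ± 0.21 in vehicle tumors (SD, n = 8). All 10 genes lay in the upper 50% of probe sets by mean signal. Markers of fibroblasts, macrophages, endothelial and mural cells were averaged into a host score, which was 5.51 ± 0.20 in prolonged tumors (SD, n = 3), 5.35 ± 0.59 in shorter tumors (SD, n = 4) and 5.17 ± 0.64 in vehicle tumors (SD, n = 8).

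After adjustment over all 40543 probe sets, none of the 10 genes differed between cinacalcet and vehicle tumors, between prolonged and vehicle, between shorter and vehicle or between prolonged and shorter (limma, adjusted p under 0.05). No probe set at all passed in any of the 4 comparisons, so the background share called was 0% in each. At an unadjusted p under 0.05, 1 of the 10 genes, Tgif1, was higher in cinacalcet than in vehicle tumors, where 2.07% of all probe sets were higher and 3.03% lower. Tgif1 was also the 1 gene higher in prolonged than in vehicle tumors, beside 3.66% of all probe sets higher and 3.48% lower. It was again the 1 gene higher in shorter than in vehicle tumors, beside 2.03% higher and 1.64% lower. Between prolonged and shorter tumors none of the 10 was past an unadjusted p of 0.05, beside 2.46% of all probe sets higher and 3.06% lower.

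In signs alone, all 10 genes had a higher mean in cinacalcet than in vehicle tumors, where 45.6% of all probe sets did. Their median difference was 0.27, beside -0.021 over all probe sets, and the smallest were 0.011 (Tgfbr3) and 0.031 (Ltbp1). Housekeeping genes (7 of 7, median 0.17), macrophage markers (8 of 8, 0.50) and fibroblast markers (7 of 8, 0.27) shared this sign. Only 2 of 6 adipocyte markers and 4 of 11 silent genes did. Of the 45 pairs of the 10 genes 35 had an r above 0, so the 10 signs are not separate evidence. Between prolonged and vehicle tumors 7 of the 10 genes were higher, with a median of 0.56 beside -0.061 over all probe sets. The p-values measure only the spread between these tumors, since the labels give each as a separate tumor and say nothing of cages or batches. In the plot of differences, the 95% confidence interval lay above 0 for Tgif1 in each comparison against vehicle and included 0 for every other gene in every comparison.

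**Figure D1:**
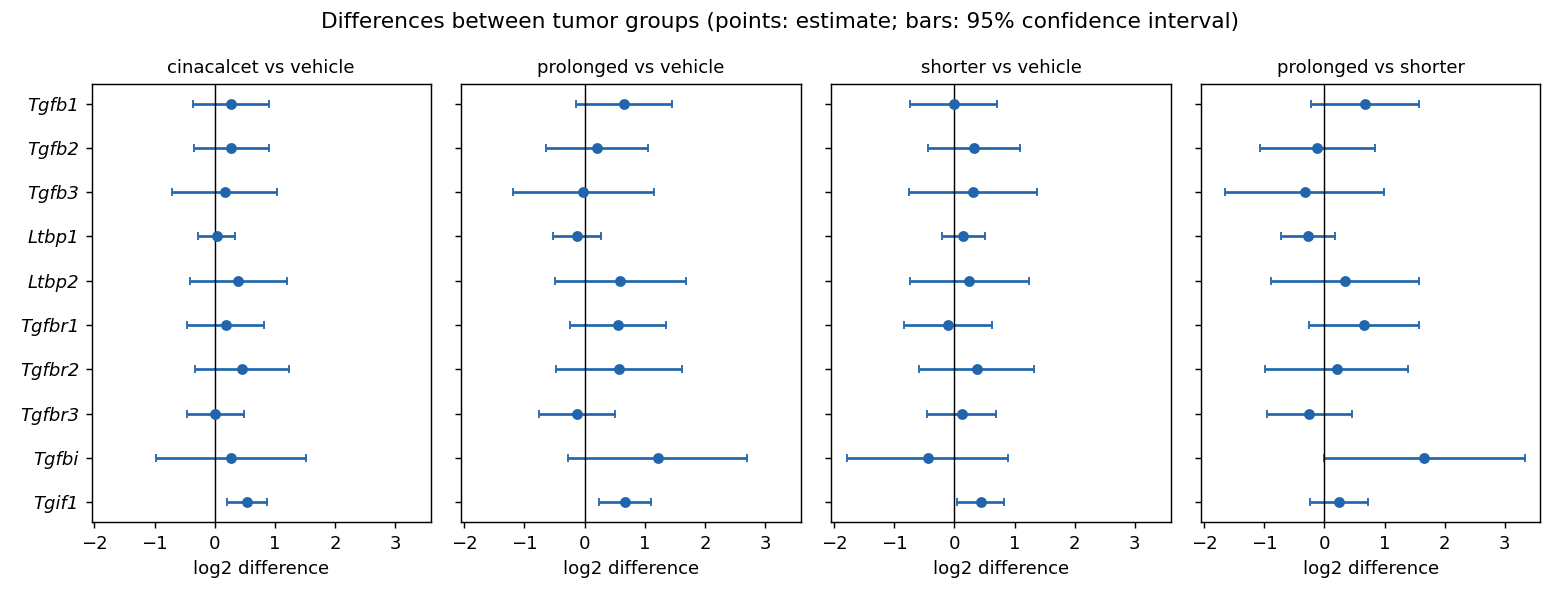
Differences in log2 signal of the 10 genes (rows) in 4 comparisons (panels), with points for the limma estimate and bars for its 95% confidence interval. Tgif1 has the intervals that lie above 0, and the widest intervals are those of Tgfbi, which was 1.66 higher in prolonged than in shorter tumors.

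Tgfb1 encodes the main TGF-beta ligand of macrophages, platelets and stroma. Its signal was 6.50, 6.27 and 6.25 in prolonged tumors 9, 10 and 11 and 6.06, 5.07, 6.11 and 5.43 in shorter tumors 4, 5, 7 and 8. In vehicle tumors the lowest value was 4.80, the median 5.68 and the highest 6.64. All 3 prolonged tumors were above all 4 shorter ones, but they lay inside the range of the vehicle tumors.

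The prolonged mean of 6.34 ± 0.14 (SD, n = 3) was 0.66 above the vehicle mean of 5.68 ± 0.71 (SD, n = 8), with a standard error of 0.37 (limma adjusted p = 0.702). The exact permutation test over tumors gave p = 0.158 (two-sided, unadjusted). Against the shorter mean of 5.67 ± 0.51 (SD, n = 4) the difference was 0.67 (95% confidence interval -0.22 to 1.57, exact permutation p = 0.0857, two-sided). The smallest p that 3 against 4 tumors allow is 0.0286. Shorter and vehicle tumors differed by -0.014, so over all cinacalcet tumors the difference was 0.27 (95% confidence interval -0.36 to 0.91).

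Tgfb2 encodes a ligand that binds Tgfbr2 efficiently only with the help of Tgfbr3. Its signal was 2.60, 3.77 and 3.57 in the prolonged tumors, 3.40, 2.38, 4.43 and 3.51 in the shorter ones, and 2.52 to 4.13 with a median of 2.98 in vehicle tumors. Both cinacalcet groups spanned most of the vehicle range. The value of 2.38, from cinacalcet 5, lay below 2.48, the highest value of any silent gene in a single tumor. Cinacalcet tumors averaged 3.38 ± 0.70 (SD, n = 7) and vehicle tumors 3.10 ± 0.55 (SD, n = 8), a difference of 0.28 with a standard error of 0.30.

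Tgfb3 encodes the third ligand, best known from palate development and wound repair. It stood at 3.94, 5.38 and 5.30 in the prolonged tumors and at 4.91, 4.33, 6.48 and 5.09 in the shorter ones. In vehicle tumors it lay between 3.47 and 5.97, with a median of 5.31. Cinacalcet 7 had the highest value of all 15 tumors, and also the highest endothelial (5.50), mural (5.85), keratinocyte (4.29, the next 2.64) and skeletal muscle markers (3.63). Over the 15 tumors Tgfb3 went with endothelial and mural markers with r of 0.84 and 0.86 and with keratinocyte markers with an r of 0.27, and the part of these cells in its value was not tested. Cinacalcet 9, the highest of the prolonged tumors for Tgfb1, was the lowest of them for Tgfb2 and Tgfb3. The mean difference between cinacalcet and vehicle tumors was 0.16, smaller than its standard error of 0.41.

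**Figure D2:**
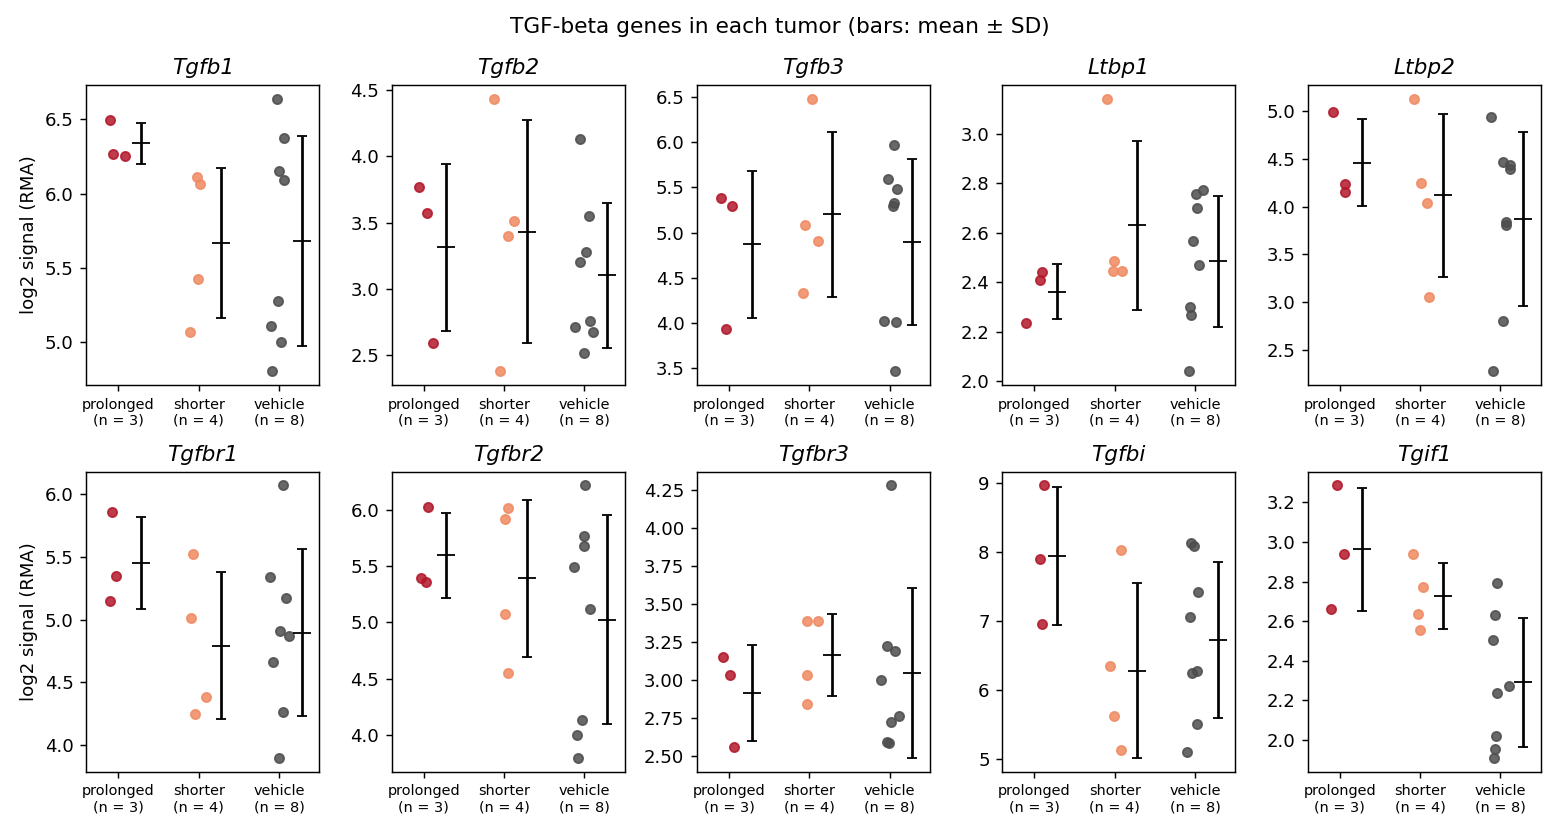
Log2 signal of each of the 10 genes in prolonged cinacalcet (n = 3), shorter cinacalcet (n = 4) and vehicle tumors (n = 8), with points for single tumors and bars for mean ± SD; each panel has its own vertical axis. The 3 prolonged tumors lie between 6.25 and 6.50 for Tgfb1, while vehicle tumors spread between 4.80 and 6.64.

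The latent TGF-beta binding proteins hold the latent complex in the matrix. Ltbp1, which binds latent TGF-beta directly, had signals of 2.41, 2.44 and 2.24 in the prolonged tumors and 2.45, 2.45, 2.49 and 3.14 in the shorter ones. In vehicle tumors they ran between 2.04 and 2.77, with a median of 2.52. All 3 prolonged tumors lay below all 4 shorter ones, though the highest prolonged tumor and the lowest shorter one stood at 2.44 and 2.45, and all 3 were inside the vehicle range. The difference between prolonged and shorter tumors was -0.27 (95% confidence interval -0.72 to 0.18, exact permutation p = 0.229, two-sided), and -0.10 without cinacalcet 8. Cinacalcet 8 was the highest of the 15 tumors for this gene, and also in platelet and megakaryocyte markers (3.78, the others at most 3.09), whose level went with Ltbp1 with an r of 0.68, and the part of these markers was not tested. At or below 2.48, the highest value of any of the 11 silent genes in a single tumor (Ctrb1), lay all 3 prolonged, 2 of 4 shorter and 4 of 8 vehicle values of Ltbp1.

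Ltbp1 and Tgfb1 were thus 2 of 10 genes whose prolonged and shorter tumors did not overlap, in opposite directions, beside 6.86% of all probe sets. None of the 10 separated all cinacalcet from all vehicle tumors (0.0469% of all probe sets did), prolonged from vehicle (2.06%) or shorter from vehicle (0.345%).

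Ltbp2, a relative that binds fibrillin rather than the latent ligand itself, had signals of 4.99, 4.24 and 4.16 in the prolonged tumors and 4.25, 3.05, 5.13 and 4.03 in the shorter ones. Vehicle tumors ran between 2.27 and 4.94, with a median of 4.11. The cinacalcet mean of 4.26 ± 0.68 (SD, n = 7) was 0.39 above the vehicle mean of 3.87 ± 0.91 (SD, n = 8), with a standard error of 0.38. The 2 lowest values, 2.27 and 2.80, were both from vehicle tumors (5 and 7). The first lay below 2.48, the highest value of any silent gene. With 1 tumor left out the difference ran from 0.17 (without vehicle 5) to 0.60 (without cinacalcet 5).

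Among the receptors, Tgfbr1 encodes the type I kinase that phosphorylates Smad2 and Smad3. It stood at 5.35, 5.15 and 5.86 in the prolonged tumors and at 5.52, 4.38, 5.01 and 4.25 in the shorter ones. Vehicle tumors ran between 3.89 and 6.07, with a median of 4.89. The prolonged mean of 5.45 ± 0.37 (SD, n = 3) was 0.56 above the vehicle mean of 4.90 ± 0.67 (SD, n = 8), with an exact permutation p of 0.212 (two-sided), and the range of the vehicle tumors took in all 3 prolonged values.

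Tgfbr2, the type II kinase that binds ligand first, had signals of 6.03, 5.40 and 5.36 in the prolonged tumors and 6.01, 4.55, 5.92 and 5.07 in the shorter ones. In vehicle tumors the lowest value was 3.79, the median 5.31 and the highest 6.22. The cinacalcet mean was 5.48 ± 0.55 (SD, n = 7) and the vehicle mean 5.02 ± 0.93 (SD, n = 8), a difference of 0.45 (standard error 0.37, exact permutation p = 0.276, two-sided). The 3 lowest of the 15 values were from vehicle tumors 5, 7 and 11.

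Tgfbr3, betaglycan, presents ligand to the other receptors and has no kinase of its own. It stood at 3.03, 3.15 and 2.56 in the prolonged tumors and at 3.03, 2.85, 3.39 and 3.39 in the shorter ones, and ran between 2.59 and 4.28 in vehicle tumors with a median of 2.88. Vehicle 9, at 4.28, was far above the other 14 tumors. The same tumor was also the highest in adipocyte markers (4.78, the others at most 3.39), lymphatic endothelial markers (4.35, the others at most 3.41) and mast cell markers (2.56, the others at most 2.03), whose levels went with Tgfbr3 over the 15 tumors with r of 0.73, 0.85 and 0.61, and their part in its value was not tested. Cinacalcet and vehicle means differed by 0.011 (95% confidence interval -0.46 to 0.48), and by 0.19 without vehicle 9.

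Tgfbi encodes an extracellular matrix protein first found as a transcript induced by TGF-beta, which macrophages and fibroblasts secrete. Its signal was 8.97, 7.90 and 6.96 in prolonged tumors 9, 11 and 10, and 8.04, 5.13, 6.34 and 5.62 in shorter tumors 4, 5, 7 and 8. In vehicle tumors the lowest value was 5.11, the median 6.67 and the highest 8.14. Only cinacalcet 9 lay above every vehicle tumor, and 3 of the 4 shorter tumors lay below the vehicle median.

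The prolonged mean of 7.94 ± 1.01 (SD, n = 3) was 1.21 above the vehicle mean of 6.73 ± 1.13 (SD, n = 8), with an interval of -0.27 to 2.70, a limma adjusted p of 0.702 and an exact permutation p of 0.152 (two-sided). It was 0.70 above without cinacalcet 9 and 1.70 above without cinacalcet 10. Against the shorter mean of 6.28 ± 1.27 (SD, n = 4) the difference was 1.66 (standard error 0.79, adjusted p = 0.864 from limma, exact permutation p = 0.143, two-sided). This was the largest difference of the 10 genes in any of the 4 comparisons.

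Several marker lists differed between the cinacalcet groups alongside Tgfbi in sign, without passing the adjusted test. The mean of 8 macrophage markers, all of which were measured, was 6.65 ± 0.50 in prolonged tumors (SD, n = 3, from 6.24 to 7.21), 5.99 ± 0.93 in shorter tumors (SD, n = 4, from 5.15 to 7.16) and 5.85 ± 1.03 in vehicle tumors (SD, n = 8, from 4.11 to 6.86). None of the 8 was past an unadjusted p of 0.05 in prolonged against shorter tumors, and 7 of the 8 had the higher mean in the prolonged ones, with a median difference of 0.92. In the same comparison the higher mean was in prolonged tumors for 6 of 6 neutrophil markers (median 0.47, 1 past an unadjusted p of 0.05), 7 of 8 fibroblast markers (median 0.24) and 6 of 7 housekeeping genes (median 0.25), but for 0 of 5 keratinocyte markers (median -1.29, 2 past an unadjusted p of 0.05) and 1 of 6 skeletal muscle markers (median -0.84, 1 past it). Single tumors stood out in these lists. The neutrophil level was 3.53 in cinacalcet 9, while cinacalcet 10 and 11, at 1.72 and 1.61, lay inside the shorter range of 1.55 to 2.05. The keratinocyte level was 4.29 and 2.64 in shorter tumors 7 and 5, but 1.29 and 1.56 in shorter tumors 4 and 8. With the host score as a covariate the Tgfbi difference was 0.78 between prolonged and vehicle tumors and 1.45 between prolonged and shorter ones. With covariates chosen after seeing the data it was 0.42 and 1.004 with the macrophage level, and 0.27 and 0.75 with the housekeeping level. The part of any of these cells in the Tgfbi result was not tested beyond this.

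Tgif1 encodes a homeodomain corepressor that binds Smad2 and limits the response to TGF-beta. Its signal was 3.29, 2.94 and 2.66 in prolonged tumors 9, 10 and 11 and 2.94, 2.56, 2.64 and 2.77 in shorter tumors 4, 5, 7 and 8. In vehicle tumors the lowest value was 1.91, the median 2.26 and the highest 2.79. At or below 2.48, the highest value of any of the 11 silent genes, lay 5 of the 8 vehicle values and none of the 7 cinacalcet values, a limit on how well its level is measured in vehicle tumors. None of the 7 cinacalcet tumors was below the mean of the vehicle tumors, and 3 of the 7 exceeded the highest vehicle tumor, so the groups overlapped.

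Cinacalcet tumors averaged 2.83 ± 0.25 (SD, n = 7) and vehicle tumors 2.29 ± 0.33 (SD, n = 8), a difference of 0.54 (standard error 0.15, 95% confidence interval 0.21 to 0.86). The adjusted p from limma was 0.909 and the exact permutation p was 0.00435 (two-sided, before any adjustment). Against vehicle the difference was 0.67 in prolonged tumors (exact permutation p = 0.0182, two-sided) and 0.44 in shorter tumors (exact permutation p = 0.0364, two-sided). The 2 cinacalcet groups share the vehicle tumors, and between them the difference was 0.24 (95% confidence interval -0.24 to 0.72). Tgif1 also stands on a gene list that the study drew from these tumors, so that its direction here is not independent evidence.

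Over all 15 tumors, most of the 10 genes were higher where the host score was higher. Of 10 relations to the host score, 7 passed by Pearson's r and 8 by Spearman's rho (permutation tests, two-sided, Benjamini-Hochberg adjusted over the 10 genes). Tgfbr2 had the highest r, 0.89 (rho of 0.81, adjusted permutation p of 0.0004 and 0.0040), with 0.82 within cinacalcet and 0.91 within vehicle tumors. Tgfb1 followed with 0.86 (rho of 0.61, adjusted permutation p of 0.0008 and 0.031), with 0.77 within cinacalcet and 0.88 within vehicle tumors. Without vehicle 5 and vehicle 11, the tumors farthest from the median score, r was 0.80 for Tgfbr2 and 0.78 for Tgfb1. The others that passed by r were Ltbp2 (0.81, and 0.72 without these tumors), Tgfb3 (0.78 and 0.63), Tgfbr1 (0.71 and 0.49), Tgfbi (0.61 and 0.59) and Tgfbr3 (0.58 and 0.49). Within cinacalcet tumors Tgfbr3 had an r of 0.24, against 0.70 within vehicle tumors.

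The mean of 7 mouse housekeeping genes, a level added after seeing the data, gave 6 of 10 relations by either measure, and the macrophage level, added likewise, gave 5 of 10, which makes 30 relations in all. The host score contains the macrophage list, so these levels are not separate evidence. Tgfb1 went with the housekeeping level with an r of 0.92 (rho of 0.825, adjusted permutation p of 0.0002 and 0.0018, of which the first is the smallest the resamples allow), with 0.90 within cinacalcet, 0.93 within vehicle tumors and 0.88 without vehicle 5 and vehicle 11. Tgfbi went with the macrophage level with an r of 0.81 (rho of 0.85, adjusted permutation p of 0.0008 and 0.0009), with 0.90 within cinacalcet, 0.77 within vehicle tumors and 0.88 without vehicle 5 and vehicle 11.

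Tgif1 had an r of 0.030 with the host score, 0.15 with the housekeeping level and 0.16 with the macrophage level, none past the test. Its r with the housekeeping level was 0.69 within cinacalcet and -0.39 within vehicle tumors (exact permutation p of 0.0798 and 0.321, two-sided), and the difference between these was not tested. The median signal of an array went with the same genes, with an r of -0.93 for Tgfb1 and -0.90 for Tgfbr2, and its part was not tested.

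The housekeeping level was 7.04 ± 0.22 in prolonged tumors (SD, n = 3), 6.68 ± 0.29 in shorter tumors (SD, n = 4) and 6.66 ± 0.39 in vehicle tumors (SD, n = 8). With it as a covariate the Tgfb1 difference between prolonged and vehicle tumors was 0.069, with the macrophage level 0.20 and with the host score 0.34, in place of 0.66. To compare treatments among tumors of like mouse signal, the tumors were also cut into 9 of higher (6.79 to 7.22) and 6 of lower housekeeping level (6.14 to 6.54). The cut was made after seeing the data, at the widest gap that leaves 6 or more tumors on each side (0.25), while the widest gap of all (0.26) set apart only 2 tumors. The same 9 and 6 tumors lay on either side of such a cut in the host score and in the macrophage level, where the widest gaps set apart a single tumor. The 9 tumors were all 3 prolonged tumors, shorter tumors 4 and 7, and vehicle tumors 6, 8, 9 and 12, and the 6 were shorter tumors 5 and 8 and vehicle tumors 5, 7, 10 and 11.

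For 4 of the 10 genes, Tgfb1, Ltbp2, Tgfbr2 and Tgfbi, every one of the 9 tumors was above every one of the 6, while 3.69% of all probe sets were without overlap in either direction. These genes already went with the housekeeping level (r of 0.92, 0.76, 0.81 and 0.79), on which the cut was made, so this is not separate evidence. Tgfb1 ran between 6.06 and 6.64 in the 9 tumors and between 4.80 and 5.43 in the 6, with no tumor between. Tgfbr2 ran between 5.36 and 6.22 in the 9 and between 3.79 and 5.12 in the 6. For Ltbp2 the ranges were 4.16 to 5.13 and 2.27 to 4.03, and for Tgfbi 6.34 to 8.97 and 5.11 to 6.28. Tgif1 ran between 1.91 and 3.29 in the 9 tumors, a range that took in all 6 of the others, which lay between 2.02 and 2.79.

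**Figure D3:**
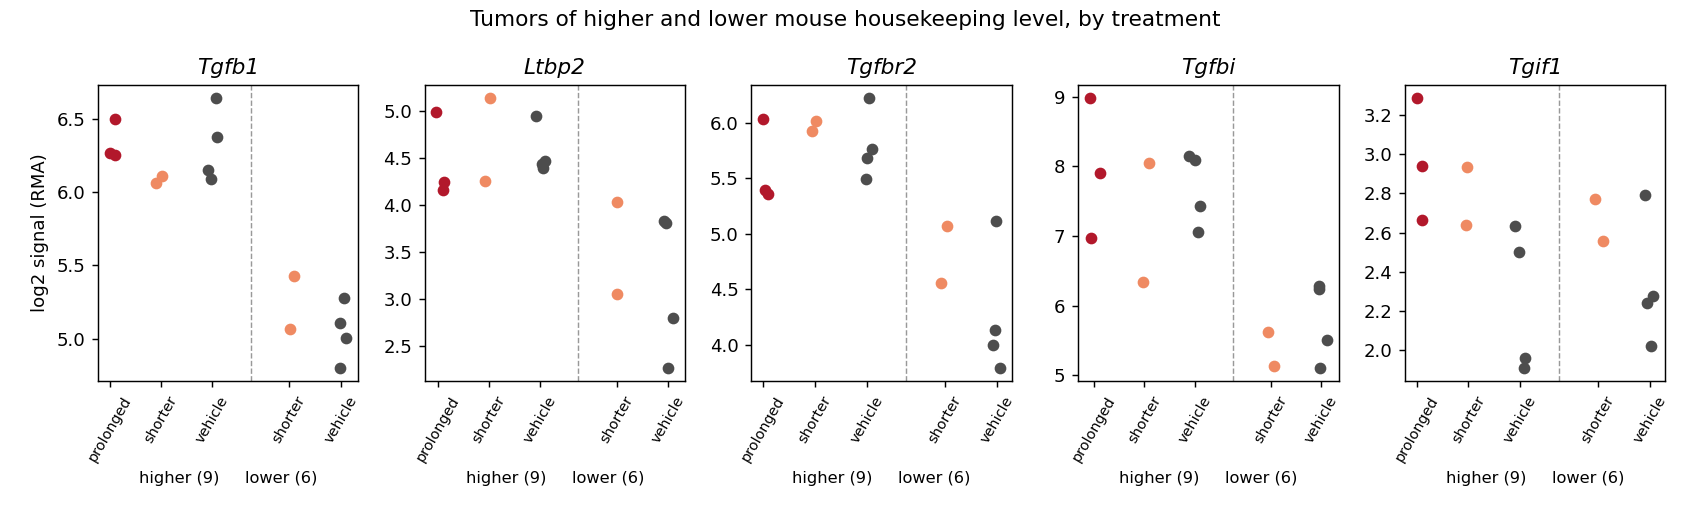
Log2 signal of 5 genes in the 9 tumors of higher (left of the dashed line) and the 6 of lower mouse housekeeping level (right), split by treatment, with points for single tumors. Tgfb1, Ltbp2, Tgfbr2 and Tgfbi do not overlap across the cut, and Tgif1 is higher in cinacalcet than in vehicle tumors within the 9.

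Within the 9 tumors of higher mouse signal, the prolonged and vehicle tumors had nearly the same Tgfb1. The means were 6.34 ± 0.14 (SD, n = 3) and 6.31 ± 0.25 (SD, n = 4), a difference of 0.025 in place of 0.66 over all tumors (exact permutation p = 0.914, two-sided, where 3 against 4 allow no p below 0.0286). The Tgfbi difference was 0.27 in place of 1.21 (7.94 ± 1.01, n = 3, against 7.68 ± 0.53, n = 4, both SD). Those of Tgfbr2 and Ltbp2 were -0.19 in place of 0.57 and -0.10 in place of 0.59. None of these 4 genes separated prolonged from vehicle tumors among the 9. All 3 prolonged tumors were among the 9. Left out were vehicle tumors 5, 7, 10 and 11, the lowest vehicle tumors for each of these 4 genes. Lower differences therefore follow from the cut itself, and what part the mouse signal had in the differences over all tumors was not tested.

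The difference in Tgif1 was also present within these 9 tumors. All 5 cinacalcet tumors, at 2.64 to 3.29, were above all 4 vehicle tumors, at 1.91 to 2.63. The nearest values, those of cinacalcet 7 and vehicle 8, were 2.638 and 2.633. Vehicle 5, the highest vehicle tumor at 2.79, was left out by the cut. The mean difference was 0.64, with an exact permutation p of 0.00794 (two-sided), the smallest that 5 against 4 allow. These tumors are among those in which Tgif1 was already seen to differ, so this is not separate evidence. Tgif1 was the 1 gene of 10 without overlap within the 9, beside 1.57% of all probe sets. In the other 6 tumors the difference was 0.33 for 2 cinacalcet against 4 vehicle tumors (exact permutation p = 0.333, two-sided, where no p below 0.0667 is possible), and vehicle 5 was the highest of the 6.

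Within either side of the cut, where the range of mouse signal is narrower and tumors are few, none of 60 relations of the 10 genes to the 3 levels passed after Benjamini-Hochberg adjustment over the 60. Pearson's r ran between -0.80 and 0.89 and Spearman's rho between -0.78 and 0.94 (exact permutation tests, smallest adjusted p of 0.222 for r and 0.428 for rho), and 6 of the 60 values of r were past an unadjusted p of 0.05.

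**Figure D4:**
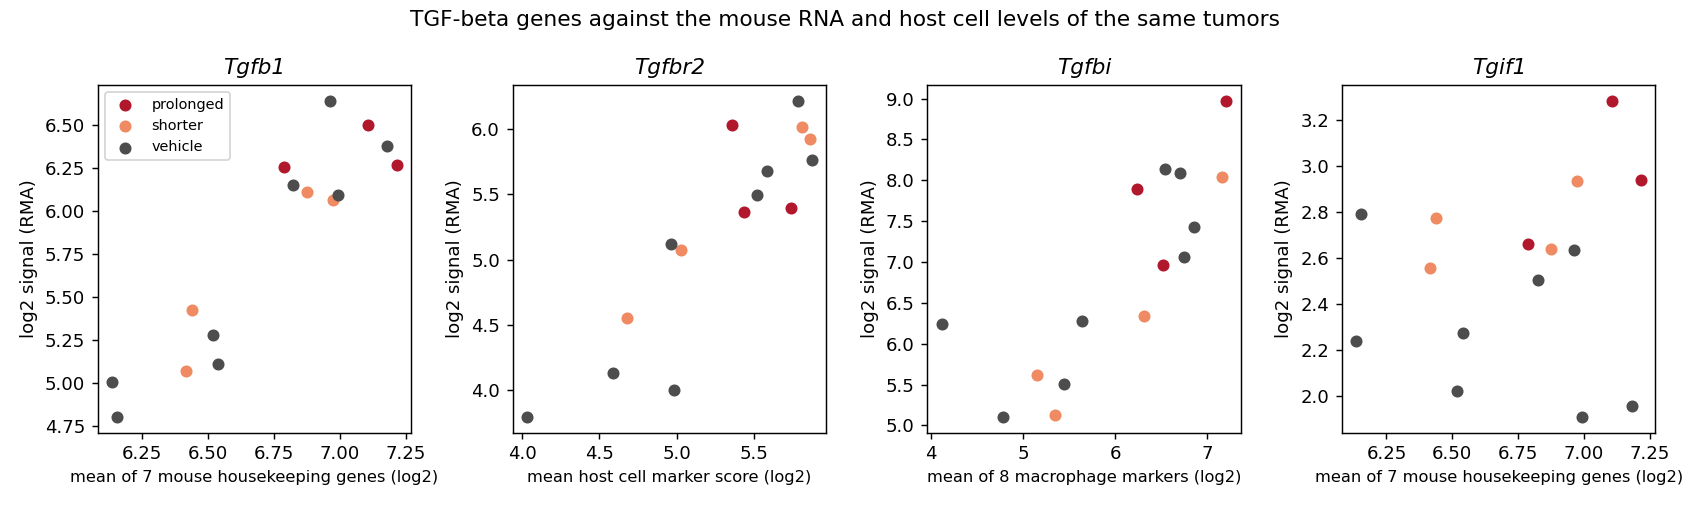
Log2 signal of Tgfb1 and Tgif1 against the mean of 7 mouse housekeeping genes, of Tgfbr2 against the host score and of Tgfbi against the mean of 8 macrophage markers, with points for the 15 tumors. Tgfb1 is higher in tumors of higher housekeeping level (r of 0.92), and Tgif1 shows no such relation over the 15 tumors (r of 0.15).

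The genes of most similar pattern differed between the members. These are descriptions over 15 tumors, from 6621 probe sets that name 1 gene and average above 3, and they share the tumors' differences in mouse signal. For Tgfb1 the nearest were Eef2, a translation elongation factor (Pearson's r of 0.96), Fcho2, an endocytosis protein (0.95), and Actb, beta-actin (0.95). For Tgfbi they were Themis2 (0.97), Itgb2 (0.97) and Fyb (0.97), all genes of leukocytes, of which Itgb2 encodes the beta-2 integrin chain. For Tgfbr2 they were Brap (0.96), B4galt1 (0.95) and Stat6 (0.95), and B4galt1, a galactosyltransferase, was also among those of Ltbp2, with Nol6 (0.93), B4galt1 (0.92) and Ctsl (0.92).

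Tgfb2 was most like Cald1, caldesmon (0.90), Ddah1 (0.86) and Ahnak2 (0.85). Tgfb3 was most like Ccn2, a matricellular TGF-beta target also known as connective tissue growth factor (0.92), Pxdn, peroxidasin (0.92), and Hspg2, perlecan of basement membranes (0.91). Tgfbr1 was most like Arpc2 (0.90), C1qc, a complement chain made by macrophages (0.89), and Ccnd2 (0.88). Tgfbr3 was most like Spns2 (0.90), Prkci (0.87) and Lum, lumican of fibroblasts (0.85). The genes nearest to Ltbp1 and Tgif1 were less like them, with r between 0.78 and 0.81 for Cul9, Prorsd1 and C130026I21Rik, and between 0.77 and 0.85 for Brpf1, Galnt2 and Akap8l.

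Among the members themselves, Tgfb1 and Tgfbr2 (r of 0.87), Ltbp2 and Tgfbr2 (0.87) and Tgfb1 and Tgfbi (0.85) were the most alike of the 45 pairs, of which 35 had an r above 0. Ltbp1 ran against Tgfbr1 (-0.61) and Tgfbi (-0.56). These values share the tumors' differences in mouse signal.

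Beyond the 10 genes, 6 lists of other pathway genes held 73 measured genes of 76 listed. None passed after adjustment in any comparison, and at an unadjusted p under 0.05 cinacalcet tumors had 2 genes higher and 0 lower than vehicle, a share of the 73 close to the background. Prolonged tumors had 1 higher (Smad2) and 0 lower than vehicle, shorter tumors 1 higher (Nog, a BMP antagonist) and 0 lower than vehicle, and prolonged tumors 0 higher and 1 lower (Comp, a matrix protein of cartilage and tendon) than shorter ones.

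Smad2, which carries the signal from Tgfbr1, was the leading gene of the 8 Smads. It averaged 3.36 ± 0.30 in cinacalcet tumors (SD, n = 7) and 2.89 ± 0.25 in vehicle tumors (SD, n = 8), a difference of 0.47 (standard error 0.15, adjusted p = 0.909 from limma). In prolonged tumors it averaged 3.52 ± 0.38 (SD, n = 3) and lay between 3.25 and 3.96, above all vehicle tumors (2.48 to 3.15), with a difference of 0.62. Cinacalcet 10 had the highest mean of the 8 Smads, 3.56, the others at most 3.21. It was also the highest in sympathetic and neuroblastoma lineage genes (4.11, the others at most 2.42), and the part of this tumor was not tested. Of all probe sets, 2.06% were without overlap in this comparison. Smad2 was named for the smallest p of its list, and 73 genes were looked at. Smad1, of the BMP arm, differed by 0.19 and Smad3 by 0.13 between cinacalcet and vehicle tumors, and Smad9 by -0.38 between prolonged and vehicle tumors.

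Of the 10 Smad regulators, Skil, the SnoN corepressor that TGF-beta itself induces, averaged 4.37 ± 0.42 in cinacalcet tumors (SD, n = 7) and 3.85 ± 0.54 in vehicle tumors (SD, n = 8), a difference of 0.51 (standard error 0.24). Ppm1a, a Smad phosphatase, differed by 0.27 and Smurf1, a ubiquitin ligase of Smads and receptors, by 0.23. Zfyve9, an anchor that brings Smad2 to the receptor, differed by -0.29 between prolonged and vehicle tumors. Skil was the 1 regulator past an unadjusted p of 0.05, in cinacalcet against vehicle tumors.

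No response gene of 19 was past an unadjusted p of 0.05 in cinacalcet or in prolonged against vehicle tumors. The largest differences between cinacalcet and vehicle tumors were those of Col3a1 at 0.51 and Ccn2 at 0.50, with standard errors of 0.52 and 0.40. The list median was 0.18, beside -0.021 over all probe sets, and 17 of the 19 had the higher mean in cinacalcet tumors. In the same comparison 7 of 7 housekeeping genes had the higher mean, with a median of 0.17, as did 8 of 8 macrophage markers, with a median of 0.50. Bgn, biglycan, differed by 0.49 and Timp1, a protease inhibitor, by 0.39 between prolonged and vehicle tumors, with standard errors of 0.61 and 0.48.

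Of the 11 genes of latency and activation, the integrin subunits Itgb5 and Itgb8 had differences of 0.49 and 0.24 between cinacalcet and vehicle tumors, and Furin, the protease that cleaves the TGF-beta precursor, 0.36 between prolonged and vehicle tumors. Of the 3 co-receptors, Eng, endoglin, differed by 0.14, Acvrl1, its endothelial partner receptor, by -0.16 and Bambi, a decoy receptor, by -0.16 between cinacalcet and vehicle tumors. In the activin and BMP arm of 22 genes, Bmpr2, the BMP type II receptor, had the smallest p and a difference of 0.46 (standard error 0.23). None of the genes in these 3 lists was past an unadjusted p of 0.05 in cinacalcet or in prolonged against vehicle tumors.

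With 15 arrays the precision is limited by their number, as the intervals show. For the ligands and receptors the 95% intervals of prolonged against vehicle tumors reached from -1.19 (Tgfb3) to 1.62 (Tgfbr2), so that a doubling of several of these genes was neither shown nor outside the intervals.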

How the data were processed

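Total RNA of 16 xenografts was measured on 16 Mouse Gene 2.1 ST arrays. The authors deposited log2 values for 40543 probe sets, background-corrected, normalized and summarized by RMA, and the submitters' processing notes name limma 3.24 and R 3.2. These values were used without further normalization. Of the probe sets, 23448 name 1 gene, 1619 several and 15476 none. Differences were fitted with limma 3.58.1 in R 4.3.3 (lmFit and eBayes) on the whole table, with Benjamini-Hochberg adjustment over all probe sets. Each of the 10 genes was also tested in R by exact permutation of tumors (two-sided). The prolonged group is the 3 tumors that the study's text names, and cinacalcet 6 was left out as in the study. Other normalizations, filters, covariates and left-out tumors were tried as alternatives. RMA draws the probe values of all arrays to 1 distribution, so that a shift shared by most genes would not be seen. Data were simulated for 40543 probe sets with independent normal noise. In them, 100 probe sets were given a change of 1 log2 unit and another 100 a change of 2. Of the probe sets changed by 1, the share recovered was 68% for cinacalcet against vehicle and 44% for prolonged against vehicle. It was 50% for shorter against vehicle and 33% for prolonged against shorter tumors. The probe sets changed by 2 were in the same adjustment, and recovery without them was not tested. In the tumors themselves no probe set was called in any main comparison. These are not shares for the 10 genes. Their standard errors in prolonged against vehicle tumors ran from 0.19 (Ltbp1) to 0.70 (Tgfbi), and recovery at these values was not tested. Relations to host levels were tested by permutation with 100000 resamples.

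Named genes are the 10 members, the up to 3 genes of smallest p per pathway list in cinacalcet and in prolonged against vehicle tumors, and the 3 genes most like each member. Comp, outside this rule, was named after its values were seen. The members and lists were chosen with earlier results of these data known.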

Additional observations from a re-analysis of the deposited data

Results flagged for a closer look

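Single tumors stood well away from the rest in 3 of the 33 groups looked at, and about 5% of groups would show this by chance. Ltbp1 was highest in cinacalcet 8, at 3.14, both among all 7 cinacalcet tumors and among the 4 shorter ones. Tgfbr3 was highest in vehicle 9, at 4.28, among the 8 vehicle tumors. Cinacalcet 6, which entered none of the main comparisons, lay above every vehicle tumor in Ltbp2 (5.29), Tgfbr2 (6.50) and Tgif1 (2.83). These are 3 of the 10 genes, beside 11.4% of all probe sets.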

How the results depend on the processing

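The number of TGF-beta genes called was 0 in each of the 4 comparisons under all 27 alternatives of the fit, and the smallest adjusted p of any member was 0.441 (limma, Tgif1 in prolonged against vehicle tumors without cinacalcet 11). With 1 tumor left out, at most 14 of all probe sets were called. Of 1076 member values under alternatives, 986 kept their direction and 90 turned, and 15 of 40 member comparisons turned in none, among them all 4 of Tgif1. Each gene had 1 probe set that names it alone, so no average over probe sets was made. For Ltbp2, 1 further probe set that also names another gene was not looked at. The study's filter kept 10135 probe sets and 9 of the 10 genes, without Ltbp1. The cause of the turns was not tested.

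For cinacalcet against vehicle tumors, the differences that turned were with array weights (Tgfbr3 -0.052), with cinacalcet 6 included (Ltbp1 -0.013, Tgfbr3 -0.080) and with the host score as a covariate (Tgfb3 -0.14, Tgfbr1 -0.020, Tgfbr3 -0.11, Tgfbi -0.074). Alternatives chosen after seeing the data were the macrophage covariate (Tgfb3 -0.037, Tgfbr1 -0.040, Tgfbr3 -0.089, Tgfbi -0.20), the housekeeping covariate (Tgfb3 -0.072, Tgfbr1 -0.047, Tgfbr3 -0.074, Tgfbi -0.20) and the 9 tumors of higher housekeeping level alone (Tgfb1 -0.076, Tgfb3 -0.38, Ltbp2 -0.0085, Tgfbr2 -0.046, Tgfbr3 -0.39, Tgfbi -0.034).

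For prolonged against vehicle tumors they were with the macrophage covariate (Tgfbr2 -0.044), the housekeeping covariate (Tgfb2 -0.11, Ltbp1 0.030, Ltbp2 -0.091, Tgfbr2 -0.15), the 9 tumors (Tgfb2 -0.055, Ltbp1 0.021, Ltbp2 -0.10, Tgfbr2 -0.19) and median centring (Tgfb3 0.070). For shorter against vehicle tumors they were with median centring (Tgfb1 0.012), cinacalcet 6 included (Tgfb1 0.16, Tgfbr1 0.043, Tgfbr3 -0.049) and the 9 tumors (Tgfbr3 -0.21). For prolonged against shorter tumors they were with quantile normalization (Tgfbr2 -0.025), cinacalcet 6 included (Tgfbr2 -0.016), the macrophage covariate (Ltbp2 -0.10, Tgfbr2 -0.30), the housekeeping covariate (Ltbp2 -0.32, Tgfbr2 -0.49) and the 9 tumors (Ltbp2 -0.23, Tgfbr2 -0.37).

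The tumor numbers do not pair the samples (correlation of deviations from -0.20 to 0.32). With the replicate block the turned values were Ltbp1 -0.068 in cinacalcet against vehicle tumors, Tgfb1 0.017 in shorter against vehicle tumors, and Tgfb2 0.26, Ltbp2 -0.46, Tgfbr2 -0.25 in prolonged against shorter tumors. Tgif1 was at 0.40 in cinacalcet against vehicle tumors under the block, and 0 members were past an unadjusted p of 0.05 there, beside 1 without the block. The block gave 2 such members in place of 1 in prolonged against vehicle tumors, 1 in both fits in shorter against vehicle tumors and 1 in place of 0 in prolonged against shorter tumors.

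With 1 tumor left out at a time, the ranges that crossed 0 in cinacalcet against vehicle tumors were -0.073 to 0.078 for Ltbp1, -0.072 to 0.35 for Tgfb3, -0.065 to 0.58 for Tgfbi, -0.054 to 0.19 for Tgfbr3. In prolonged against vehicle tumors they were -0.020 to 0.57 for Tgfb2, -0.28 to 0.44 for Tgfb3, -0.25 to 0.046 for Tgfbr3. In shorter against vehicle tumors they were -0.025 to 0.21 for Ltbp1, -0.091 to 0.60 for Ltbp2, -0.16 to 0.19 for Tgfb1, -0.0071 to 0.68 for Tgfb2, -0.12 to 0.60 for Tgfb3, -0.35 to 0.078 for Tgfbr1. In prolonged against shorter tumors they were -0.010 to 0.68 for Ltbp2, -0.47 to 0.24 for Tgfb2, -0.62 to 0.14 for Tgfb3, -0.074 to 0.41 for Tgfbr2.

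Pearson's r with the host score over all 15 tumors changed its call or sign with cinacalcet 6 included (Tgfb2 0.52, Tgfbr3 0.47), median centring (Tgfb2 0.61, Ltbp1 0.011), the fibroblast list alone (Tgfbr1 0.50, Tgfbi 0.52) and the macrophage list alone (Tgfb3 0.52, Tgfbr3 0.47).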
